A study of Mus musculus and Homo sapiens with 24 samples.

Results

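The voltage-gated sodium, potassium and chloride channel genes were taken by symbol: SCN genes for sodium channel alpha and beta subunits, CLCN genes for chloride channels and transporters, and KCN genes followed by a family letter and a number for potassium channel subunits. A gene was kept in a cell line when at least 4 of that line's libraries held 10 or more counts. This kept 54 of 118 matching symbols among 58735 genes in the human table and 37 of 104 matching symbols among 56748 genes in the mouse table. Together the lines kept 67 of 120 symbols, of which 24 were kept in both, 30 in the human line alone and 13 in the mouse line alone. The set is wider than its name: inward rectifier (KCNJ), 2-pore (KCNK) and calcium- or sodium-activated (KCNN, KCNT) potassium channels have no working voltage sensor or open mainly on other signals, most CLCN proteins are exchangers of intracellular membranes, and KCNQ1OT1, KCNJ2-AS1 and KCNH1-IT1 are non-coding transcripts.

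The study followed muscle differentiation by poly-A RNA sequencing in 2 established skeletal myoblast lines, human LHCN-M2 and mouse C2C12. LHCN-M2 libraries came from days 0, 1 and 12 and C2C12 libraries from days 0, 1 and 6, with 4 libraries for each day of each line and 24 in all. Every library carries the genotype label control, and the labels name no added agent or medium. They do not say whether the 4 libraries of a day are separate cultures, so the errors and p-values below cover library-to-library variation that could be purely technical. LHCN-M2 is an immortalised human myoblast line and C2C12 a mouse myoblast line. Each is a single line, and the last days differ between them.

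A skeletal muscle fibre fires and carries its action potential with voltage-gated sodium channels, above all the adult isoform encoded by SCN4A. Potassium channels repolarise the membrane and, as inward rectifiers, hold its resting potential, and in mature fibres a large resting chloride conductance through the channel encoded by CLCN1 damps excitability. In human myoblasts, hyperpolarisation through the KCNH1 and KCNJ2 channels is known to precede fusion into myotubes.

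Total counts ranged between 33030258 and 48546621 per LHCN-M2 library and between 32795699 and 43827517 per C2C12 library. In sum, skeletal muscle markers were higher on the later days in both lines: the summed level of 8 skeletal muscle genes was 572 to 763 CPM (library-size-scaled read counts per 1e+06 reads) on day 0, 1633 to 1894 CPM on day 1 and 5619 to 6772 CPM on day 12 in LHCN-M2, and 262 to 277, 405 to 438 and 2540 to 2691 CPM on days 0, 1 and 6 in C2C12. By edgeR (adjusted p under 0.05), 7 of the 8 were higher and 1 lower on day 1 and on day 12 than on day 0 in LHCN-M2. On day 12 against day 1, 6 were higher and 2 lower there. In C2C12 all 8 were higher on both later days than on day 0. MYOG, the myogenin gene that marks commitment, was at 0 counts in LHCN-M2 on day 0. Of 14 neural markers, 9 lay under 1 CPM in LHCN-M2 on day 12 and ELAVL3 and ELAVL4 were at 0 counts, and their summed level was 43.3 to 49.4 CPM on day 12 against 45.8 to 55.7 CPM on day 0. In C2C12 the neural sum was higher, at 830 to 897 CPM on day 6 against 326 to 365 CPM on day 0, with Snap25, Rbfox3 and Elavl4 at 0 counts on day 6. In LHCN-M2, 2 libraries stood apart within their groups on the third principal component, which held 5.87% of the variance: day 0 replicate 2 scored -72.5 against 19.1 to 29.9 for the other day 0 libraries, and day 12 replicate 1 scored -22.3 against 4.41 to 9.27. In C2C12, day 6 replicate 2 scored 44.5 on a component with 3.48% of the variance, against -28.3 to -6.55 for its group. The 6 fibroblast markers summed to 21530 to 22620 CPM on day 12 and 9692 to 10090 CPM on day 0 in LHCN-M2, and to 2033 to 2099 CPM on day 6 and 6398 to 7606 CPM on day 0 in C2C12, and the 5 endothelial markers stayed under 17 CPM in sum throughout. The 8 heart markers summed to 11.5 to 15.3 CPM on day 12 and 0.304 to 0.557 CPM on day 0 in LHCN-M2, with NPPB, MYL7 and TBX5 at 0 counts on day 12, and to 7.83 to 11.6 CPM on day 6 and 6.09 to 8.51 CPM on day 0 in C2C12. On day 12 in LHCN-M2, 7 of the 8 averaged under 1 CPM, so most of that sum came from the remaining gene. What these other-cell markers have to do with the channel values was not tested. Bulk RNA cannot tell fewer cells of a type from less RNA per cell.

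The promoter windows of 4 mouse genes are shown because the results turn on these genes: Scn4a, Kcnj12 and Kcnn3, which were all higher on day 6 than on day 0, and Clcn1, the muscle chloride channel gene, which was not. Each is the 300-base RefSeq window of build GRCm38.p6, from 250 bases before the gene's start to 50 bases after it, written 5′ to 3′ on the gene's strand. Capitals mark E-boxes (CANNTG, the same on both strands), the motif that MyoD-family factors are known to bind. The windows are chr11:106349341-106349640 on the minus strand for Scn4a, chr11:61065554-61065853 on the plus strand for Kcnj12, chr3:89519914-89520213 on the plus strand for Kcnn3 and chr6:42286435-42286734 on the plus strand for Clcn1.
Scn4a: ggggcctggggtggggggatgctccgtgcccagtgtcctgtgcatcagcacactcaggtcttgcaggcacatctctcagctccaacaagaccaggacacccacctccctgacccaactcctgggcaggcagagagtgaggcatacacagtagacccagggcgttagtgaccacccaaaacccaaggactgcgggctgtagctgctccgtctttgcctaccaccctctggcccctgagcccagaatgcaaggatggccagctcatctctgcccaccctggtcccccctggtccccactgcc
Kcnj12: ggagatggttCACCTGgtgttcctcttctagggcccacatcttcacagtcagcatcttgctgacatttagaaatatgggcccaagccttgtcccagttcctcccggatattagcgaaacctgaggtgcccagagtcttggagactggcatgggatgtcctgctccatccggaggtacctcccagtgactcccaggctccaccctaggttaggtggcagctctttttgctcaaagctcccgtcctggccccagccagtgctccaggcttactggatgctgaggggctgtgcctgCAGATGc
Kcnn3: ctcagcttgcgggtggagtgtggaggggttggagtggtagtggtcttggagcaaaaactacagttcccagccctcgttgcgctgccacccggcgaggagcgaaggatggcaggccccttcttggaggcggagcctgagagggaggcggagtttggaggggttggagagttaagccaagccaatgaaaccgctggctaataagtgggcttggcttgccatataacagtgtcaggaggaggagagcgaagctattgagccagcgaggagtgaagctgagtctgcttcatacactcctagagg
Clcn1: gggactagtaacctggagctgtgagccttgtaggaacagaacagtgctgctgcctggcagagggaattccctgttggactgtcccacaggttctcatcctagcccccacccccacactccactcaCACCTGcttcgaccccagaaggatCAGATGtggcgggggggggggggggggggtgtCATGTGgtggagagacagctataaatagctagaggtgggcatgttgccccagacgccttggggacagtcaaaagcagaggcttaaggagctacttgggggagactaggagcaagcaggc
The Kcnj12 window held 2 E-boxes, the first starting 240 bases before the gene's start and the second inside the transcribed part. The Clcn1 window held 3, all before the start. No E-box letters occurred in the Scn4a and Kcnn3 windows. Of the 37 kept mouse genes, 32 had a RefSeq window. E-boxes occurred in 37 of their 47 windows, or 78.7%, and in 72.3% of all 32851 windows. A match to the MEF2 consensus, searched on both strands, was found in the Clcn1 window, starting 51 bases before the start and overlapping none of the E-boxes. It was found in 0.557% of all windows and in 1 of the 47 windows of kept channel genes. These matches describe letters, not binding.

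Over the whole set, channel genes were mostly higher in differentiated LHCN-M2 cells, and in both lines a larger share of them was called than of all genes. Of 51 LHCN-M2 channel genes tested with edgeR's quasi-likelihood test (adjusted p under 0.05 over 18214 genes), 29 were higher and 8 lower on day 12 than on day 0, or 72.5% called, where 27.1% of all genes were higher and 27.5% lower, 54.6% in either direction. The median log2 fold change was 1.11 over the tested channel genes and -0.01 over all genes tested. SCN4A, KCNJ11 and KCNA10, at 0 counts on day 0, were kept through later libraries alone and could not be called lower than on day 0. On day 1 against day 0, 28 were higher and 9 lower (23.4% and 23.5% of all genes, 46.9% in either direction), with a median of 0.82 against 0.03. On day 12 against day 1, 20 were higher and 11 lower (20.9% and 18.8% of all genes, 39.8% in either direction). Without the pair of libraries that stood apart, 30 and 10 were called on day 12 against day 0, 28 and 8 on day 1 against day 0, and 23 and 13 on day 12 against day 1.

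In C2C12, 17 of 35 tested channel genes were higher and 11 lower on day 6 than on day 0, or 80% called, where 33.1% of all 17065 genes tested were higher and 32.5% lower, 65.6% in either direction. The median log2 fold change was 0.54 over the channel genes and -0.03 over all genes. Genes with few or no counts on day 0, such as Scn4a and Scn10a, were kept through later libraries alone and could not be called lower. On day 1 against day 0, 13 were higher and 9 lower (25.9% and 24.4% of all genes, 50.3% in either direction), with a median of -0.01 against -0.01, and on day 6 against day 1, 17 were higher and 10 lower (32.8% and 28.6% of all genes, 61.4% in either direction).

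With a 2-fold minimum beside the adjusted p, the LHCN-M2 counts were 26 higher and 5 lower on day 12 against day 0, where 14.5% of all genes were higher and 9.77% lower, 24.3% in either direction. They were 22 and 7 on day 1 against day 0 (10.8%, 7.28% and 18%) and 17 and 7 on day 12 against day 1 (8.28%, 4.93% and 13.2%). In C2C12 the counts were 11 higher and 6 lower on day 6 against day 0 (9.83%, 13.5% and 23.4%), 6 and 5 on day 1 against day 0 (4.91%, 5.65% and 10.6%), and 10 and 7 on day 6 against day 1 (7.39%, 10.8% and 18.2%). Summed over the kept genes, channel transcripts made up 473 to 655 CPM on day 0, 913 to 984 CPM on day 1 and 972 to 1223 CPM on day 12 in LHCN-M2. The C2C12 sums were 469 to 501, 571 to 597 and 659 to 731 CPM on days 0, 1 and 6, so that within each line the range of day 0 did not overlap those of the later days. Genes that the edgeR filter left out were KCNE1B, KCNE2 and KCNJ8 in LHCN-M2, with group means of 0.304 CPM or less, and Kcna3 and Kcnk7 in C2C12, with 0.394 CPM or less.

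**Figure D1:**
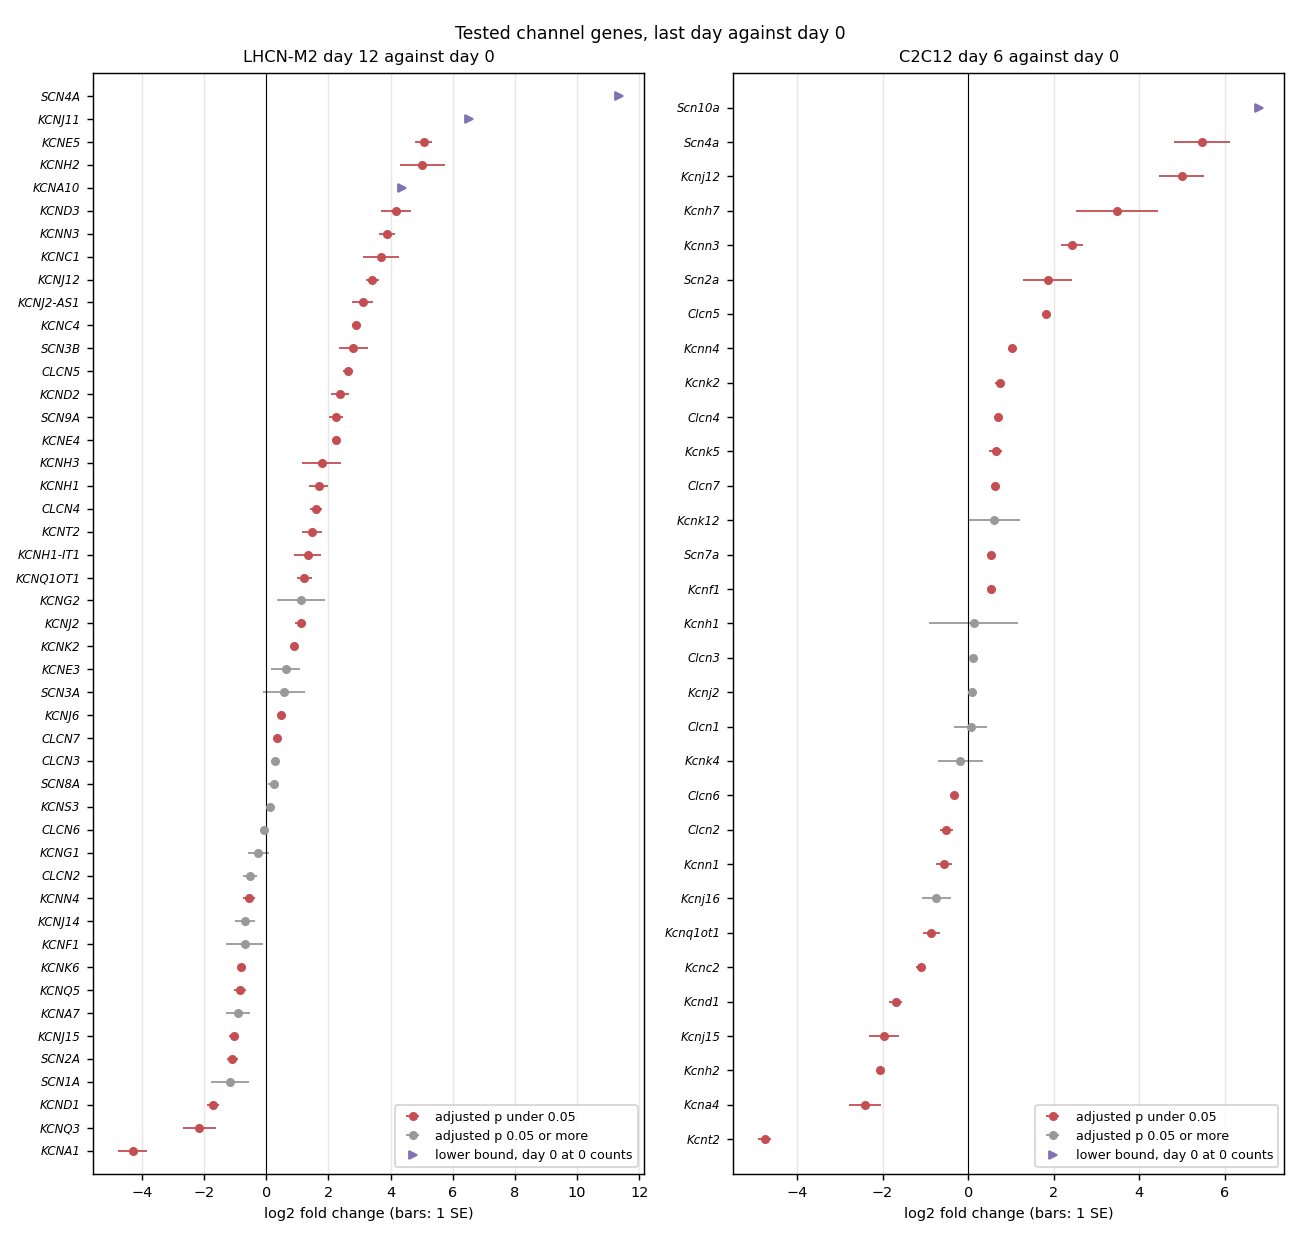
Log2 fold change of the last day against day 0 for 47 tested LHCN-M2 and 31 tested C2C12 channel genes, with bars of 1 SE; red points passed an adjusted p of 0.05, grey points did not, and purple triangles are lower bounds for genes at 0 counts on day 0. SCN4A, at a bound of 2615-fold, lies farthest right in LHCN-M2, and Kcnt2, at -4.75, lies farthest left in C2C12.

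Among the sodium channel alpha subunits, the adult muscle gene SCN4A rose in both lines. SCN4A (GRCh38 chr17:63938554-63972918, minus strand) had 0 counts in all 4 LHCN-M2 libraries of day 0. Its level was 3.29, 3.63, 4.17 and 4.62 CPM on day 1 and 43.4, 56.4, 52.0 and 50.9 CPM on day 12. No library of one day overlapped those of another. Against a floor of 3 counts over the day 0 group, SCN4A was at least 2615-fold higher on day 12 than on day 0 (adjusted p = 3.98e-12) and at least 205-fold higher on day 1 (adjusted p = 7.09e-10). Per length, its day 12 level was 6.15 ± 0.658 RPKM (CPM divided by gene length in kilobases; SD, n = 4). From day 1 to day 12 the gain was a log2 fold change of 3.69 ± 0.14 (SE), adjusted p = 1.25e-09.

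In C2C12, Scn4a was nearly silent until the last sampling. It had 0.152, 0, 0 and 0.0531 CPM on day 0, 0 in every library of day 1 and 3.76, 2.48, 2.13 and 1.89 CPM on day 6, or 8, 0 and 393 counts over the 4 libraries of each day. The day 6 libraries stood clear of all others, at a log2 fold change 5.47 ± 0.65, adjusted p = 7.05e-07 against day 0. Leaving out day 0 replicate 1, which held 6 of those 8 counts, moved that log2 fold change to 6.84 (adjusted p = 1.16e-07). The small fall to 0 on day 1 (adjusted p = 0.0236) was no longer called without that library (adjusted p = 0.138). The promoter window printed above showed no E-box for this gene.

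The other alpha subunits, known mostly from neurons, moved separately. SCN9A, which encodes the sodium channel of pain-sensing neurons, had 3.79, 3.16, 5.22 and 4.03 CPM on day 0, 3.37, 3.43, 4.47 and 5.99 CPM on day 1 and 14.2, 24.5, 19.7 and 18.3 CPM on day 12. The day 12 libraries were clear of the rest (log2 fold change 2.24 ± 0.22, adjusted p = 4.26e-07 against day 0). SCN8A, the main sodium channel of myelinated axons, averaged 43.0 ± 10.6 CPM on day 12 and 36.4 ± 7.94 CPM on day 0 (SD, n = 4 each), an uncalled difference (adjusted p = 0.298). SCN2A, a channel of axon initial segments in the brain, was higher on day 1, at 21.4 CPM, and lower on day 12, at 6.47 CPM, against 13.7 CPM on day 0 (log2 fold change -1.09 ± 0.17, adjusted p = 5.68e-05 for day 12). SCN1A and SCN3A stayed under 0.5 CPM on average on each day and were not called on day 12 against day 0. In all, 3 of 7 tested alpha subunits were higher and 1 lower on day 12 than on day 0 (27.1% and 27.5% of all genes). SCN4A, counted among the higher, was kept through later libraries alone and could not have been called lower.

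All 5 tested C2C12 alpha subunits were higher on day 6 than on day 0, as were 33.1% of all genes tested. Of these, Scn4a and Scn10a reached 10 counts in no library of day 0. The rule kept them through later libraries alone, so they could not have been called lower. Scn10a, known from sensory neurons, had 0 counts on day 0, 0.447, 0.12, 0.506 and 0.257 CPM on day 1 and 2.55, 2.27, 1.17 and 3.25 CPM on day 6. That made it at least 112-fold higher on day 6 than on day 0 (adjusted p = 4.11e-08). Scn2a reached 0.849, 1.24, 1.28 and 1.19 CPM on day 6, above the 0.328, 0.573, 0.3 and 0.0531 CPM of day 0 (log2 fold change 1.86 ± 0.58, adjusted p = 0.00788). Scn7a, an atypical sodium-sensing member, peaked on day 1 at 26.1, 32.3, 27.4 and 28.9 CPM, against 8.77, 8.44, 9.95 and 9.93 CPM on day 0 (log2 fold change 1.63 ± 0.09, adjusted p = 8.38e-12). It was at 13.5 CPM on day 6. Scn8a was at 0 counts in all 12 C2C12 libraries. The sum of the neural markers was also higher on day 6 in C2C12, as given above, and its part in the values of these neuronal subunits was not tested.

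The beta subunits, small partners that modify gating and surface levels of the alpha subunits, were fewer. SCN3B had 1.37, 2.25, 2.58 and 1.84 CPM on day 12 and 0.433, 0.212, 0.361 and 0.14 CPM on day 0 in LHCN-M2, without overlap (log2 fold change 2.81 ± 0.47, adjusted p = 0.000129). SCN4B was not kept in either line.

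**Figure D2:**
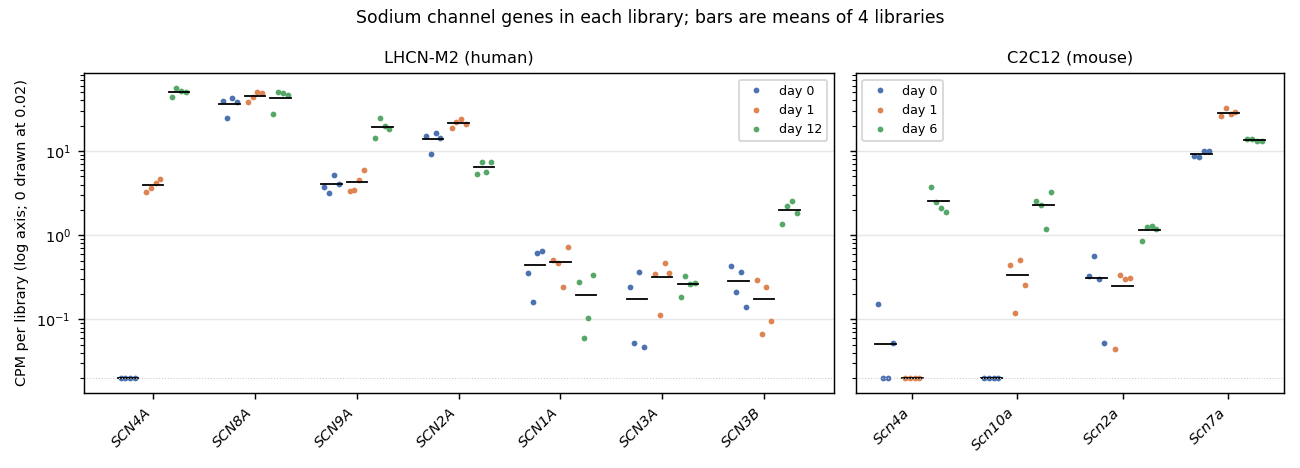
CPM of kept sodium channel genes in each library (log axis, 0 drawn at 0.02), by day, with black bars for the means of 4 libraries; LHCN-M2 is on the left and C2C12 on the right. SCN4A leaves 0 by day 1 in LHCN-M2, Scn4a is clear of the earlier days only on day 6 in C2C12, and Scn7a peaks on day 1 there.

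Of 15 voltage-gated potassium channel subunits tested in LHCN-M2, 10 were higher and 4 lower on day 12 than on day 0. In C2C12, 3 of 8 tested were higher and 4 lower on day 6 than on day 0. Over all genes tested, 27.1% were higher and 27.5% lower in LHCN-M2, and 33.1% and 32.5% in C2C12.

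KCNC4, the fast-inactivating Kv3.4 of skeletal muscle (GRCh38 chr1:110211343-110283100, plus strand), rose late in LHCN-M2. It had 3.9, 4.64, 5.35 and 3.09 CPM on day 0, 4.24, 3.34, 3.78 and 3.98 CPM on day 1 and 29.0, 32.1, 31.6 and 34.3 CPM on day 12. Only the day 12 libraries stood apart from the others, by a log2 fold change 2.90 ± 0.15, adjusted p = 3.53e-10 against day 0. Day 1 was not called against day 0 (adjusted p = 0.464). Kcnc4 was at 0 counts in all C2C12 libraries. KCNC1 (Kv3.1) rose to 2.36 CPM on day 12, against 0.183 CPM on day 0 (log2 fold change 3.69 ± 0.59, adjusted p = 7.54e-05), or 4.78 (adjusted p = 5.53e-06) without day 0 replicate 1. KCNC1 overlaps SERGEF on the opposite strand, which averaged 9.1 CPM on day 12 and 7.2 CPM on day 0. Without the strand their reads cannot be told apart.

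KCNH2, the hERG channel (GRCh38 chr7:150944961-150978315, minus strand), moved in opposite directions in the 2 lines. In LHCN-M2 it had 2.06, 3.19, 1.97 and 3.29 CPM on day 12 and 0.271, 0, 0 and 0.0468 CPM on day 0 (log2 fold change 5.03 ± 0.73, adjusted p = 3.29e-05). Of its 12 counts on day 0, 10 lay in replicate 1, and without it the log2 fold change was 7.05 (adjusted p = 3.25e-06). In C2C12, Kcnh2 had 6.28, 7.09, 6.9 and 8.34 CPM on day 6 and 28.6, 28.9, 32.5 and 29.0 CPM on day 0 (log2 fold change -2.06 ± 0.09, adjusted p = 2.92e-14). KCNH1, the channel linked to human myoblast fusion, rose by day 1 in LHCN-M2, at 18.5, 22.5, 21.9 and 19.8 CPM against 7.57, 1.75, 6.48 and 7.56 CPM on day 0 (log2 fold change 1.82 ± 0.31, adjusted p = 0.000164). It was at 18.9 CPM on day 12, not called against day 1 (adjusted p = 0.754). Kcnh1 stayed under 0.51 CPM in every C2C12 library.

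The A-type channels of the KCND family split. KCND1 fell by the last day in both lines, to 1.74, 1.83, 1.68 and 1.44 CPM on day 12 against 5.65, 3.37, 6.2 and 6.48 CPM on day 0 in LHCN-M2 (log2 fold change -1.70 ± 0.20, adjusted p = 3.01e-06), after a higher day 1 at 10.3 CPM. Kcnd1 had 5.07, 4.06, 2.62 and 4.03 CPM on day 6 and 14.8, 13.3, 12.4 and 10.9 CPM on day 0 in C2C12 (log2 fold change -1.70 ± 0.16, adjusted p = 5.96e-09). In both lines the last day did not overlap day 0. KCND2 peaked on day 1 in LHCN-M2, with 1.32, 0.424, 1.14 and 0.819 CPM on day 0, 15.9, 17.4, 16.1 and 16.9 CPM on day 1 and 6.17, 3.85, 3.16 and 6.01 CPM on day 12. KCND3 reached 1.89 CPM on day 12, against 0.102 CPM on day 0 (log2 fold change 4.17 ± 0.48, adjusted p = 2.73e-06).

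Some KCNA, KCNC and KCNQ genes fell. KCNA1, the axonal Kv1.1, had 0.32, 0.12, 0.105 and 0.18 CPM on day 12 and 3.76, 1.7, 4.47 and 4.87 CPM on day 0 in LHCN-M2 (log2 fold change -4.30 ± 0.46, adjusted p = 1.43e-06), most of it gone by day 1 (log2 fold change -3.30 ± 0.43, adjusted p = 1.26e-05). In C2C12, Kcna4 (Kv1.4) had 0.752, 0.545, 0.218 and 0.291 CPM on day 6 and 2.32, 2.71, 1.92 and 2.65 CPM on day 0 (log2 fold change -2.40 ± 0.37, adjusted p = 9.37e-06). Kcnc2 (Kv3.2) had 7.79, 6.91, 6.82 and 7.44 CPM on day 6 and 15.0, 14.1, 16.0 and 17.5 CPM on day 0 (log2 fold change -1.11 ± 0.10, adjusted p = 2.97e-09). KCNQ5, a muscarine-sensitive channel subunit, was lower on day 1, at 7.34 CPM, and on day 12, at 11.6 CPM, against 20.9 CPM on day 0 (log2 fold change -0.85 ± 0.19, adjusted p = 0.00164 for day 12). KCNQ3, its common partner, was lower on day 12 at a log2 fold change of -2.15 ± 0.53 (SE), adjusted p = 0.00301. KCNA7 was lower on day 1 than on day 0 (log2 fold change -1.55 ± 0.40, adjusted p = 0.00473) and was not called on day 12 (adjusted p = 0.0643). It was called lower on day 12 under 5 of 16 alternatives. These were DESeq2 (adjusted p = 0.0478), leaving out day 0 replicate 2 or day 12 replicate 1 or 3 (adjusted p = 0.0324 to 0.0494), and leaving out both libraries that stood apart (adjusted p = 0.0214). At the low end, KCNA10 was at 0 counts in LHCN-M2 until day 12, when it had 0.32, 0.511, 0.474 and 0.315 CPM. KCNH3 in LHCN-M2, at 0.537 CPM on day 12 and 0.153 CPM on day 0, and Kcnh7 in C2C12, at 0.659 CPM on day 6 and 0.0578 CPM on day 0, were also called higher on the last day (adjusted p = 0.0234 and 0.00345). KCNH3 overlaps MCRS1 on the opposite strand, which averaged 46.1 CPM on day 12 and 56.4 CPM on day 0, and without the strand their reads cannot be told apart.

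Silent subunits, which form no channel alone but modify other Kv channels, moved mostly on day 1. In C2C12, Kcnf1 had 5.25, 5.22, 4.77 and 4.57 CPM on day 0, 19.3, 18.1, 20.2 and 19.0 CPM on day 1 and 6.91, 7.84, 6.76 and 7.2 CPM on day 6. Day 1 was clear of both other days (log2 fold change 1.95 ± 0.10, adjusted p = 2.6e-12 against day 0). KCNF1 also had its highest mean on day 1 in LHCN-M2, with 0.209, 1.23 and 0.132 CPM on days 0, 1 and 12. On the last day Kcnf1 was called higher than on day 0 in C2C12 (log2 fold change 0.54 ± 0.10, adjusted p = 0.000123), and KCNF1 was not called in LHCN-M2 (adjusted p = 0.342). KCNS3 peaked on day 1 as well, at 7.41 CPM against 4.98 CPM on day 0 (log2 fold change 0.57 ± 0.12, adjusted p = 0.00133), while KCNG1 was lower on day 1 (log2 fold change -1.53 ± 0.37, adjusted p = 0.00287) and KCNG2 stayed under 0.5 CPM on average. None of 4 tested silent subunits was called on day 12 against day 0 in LHCN-M2, by edgeR at either an adjusted p or an unadjusted p under 0.05. Of all genes tested, 54.6% were called there at the adjusted p.

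KCNE genes encode single-span partners of Kv channels and were kept in LHCN-M2 alone. KCNE4 had 14.1, 10.5, 14.6 and 14.7 CPM on day 0, 40.6, 34.3, 43.3 and 37.9 CPM on day 1 and 67.2, 62.4, 62.5 and 63.0 CPM on day 12. The days did not overlap and each step was higher (log2 fold change 2.24 ± 0.11, adjusted p = 2.23e-10 for day 12 against day 0). Per length, its day 12 level was 15.5 ± 0.553 RPKM (SD, n = 4). KCNE5 reached 7.78, 6.46, 6.45 and 8.12 CPM on day 12, against 0.271, 0.212, 0.284 and 0.0936 CPM on day 0 (log2 fold change 5.06 ± 0.28, adjusted p = 8.64e-10). KCNE5 overlaps ACSL4 on the same strand, and ACSL4 was at 245 CPM on day 12 and 182 CPM on day 0 (log2 fold change 0.43, adjusted p = 0.000792). KCNE3, known to pair with Kv3.4 in muscle, was higher on day 1 at 1.41 CPM than on day 0 at 0.362 CPM (log2 fold change 1.95 ± 0.46, adjusted p = 0.00266). Day 12 was called lower than day 1 (log2 fold change -1.32, adjusted p = 0.0278), which was lost with the replicate number as a block (log2 fold change -1.23, adjusted p = 0.0518). It was also lost without day 1 replicate 1 or any of day 12 replicates 1, 2 and 3 (adjusted p = 0.0523 to 0.117).

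**Figure D3:**
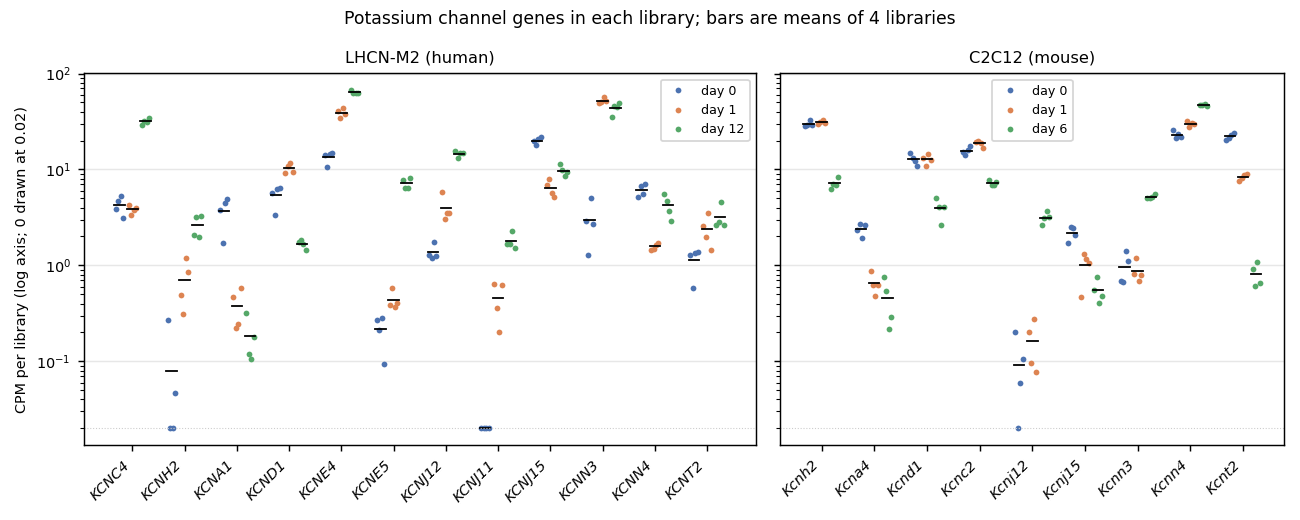
CPM of 12 LHCN-M2 and 9 C2C12 potassium channel genes in each library (log axis, 0 drawn at 0.02), by day, with black bars for the means of 4 libraries. KCNJ12 is highest on the last day in both lines, KCND1 and KCNJ15 are lower on the last day than on day 0 in both, and KCNH2 and KCNT2 go opposite ways.

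Inward rectifiers set the resting potential. Of 6 tested in LHCN-M2, 4 were higher and 1 lower on day 12 than on day 0 (27.1% and 27.5% of all genes). KCNJ12 (Kir2.2, GRCh38 chr17:21376197-21419872, plus strand) had 1.3, 1.19, 1.76 and 1.26 CPM on day 0, 5.76, 3.07, 3.48 and 3.55 CPM on day 1 and 15.6, 13.1, 15.0 and 14.9 CPM on day 12 in LHCN-M2 (log2 fold change 3.41 ± 0.20, adjusted p = 1.86e-09). Its reads can be shared with the near-identical KCNJ18, which had at most 1 count in any library, so the level is uncertain. In C2C12, Kcnj12 had 0.202, 0, 0.06 and 0.106 CPM on day 0, 0.201, 0.0961, 0.276 and 0.0772 CPM on day 1 and 2.62, 3.12, 3.68 and 3.2 CPM on day 6. The day 6 libraries were clear of both earlier days (log2 fold change 4.99 ± 0.52, adjusted p = 3.22e-08 against day 0, and 5.70 without day 0 replicate 1), and day 1 was not called (adjusted p = 0.317).

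KCNJ11, the pore of the ATP-sensitive potassium channel, had 0 counts in LHCN-M2 on day 0, 0.634, 0.356, 0.203 and 0.623 CPM on day 1 and 1.67, 1.65, 2.26 and 1.53 CPM on day 12. It was at least 92.0-fold higher on day 12 than on day 0 (adjusted p = 1.22e-06), and Kcnj11 was not kept in C2C12. KCNJ2 (Kir2.1), the other channel of the human fusion pathway, rose by day 1 in LHCN-M2, to 12.3, 12.8, 14.7 and 13.2 CPM against 6.36, 3.66, 7.9 and 7.02 CPM on day 0 (log2 fold change 1.09 ± 0.18, adjusted p = 0.00017). It stayed at 13.4 CPM on day 12. Its antisense neighbour KCNJ2-AS1 also rose, to 2.62 CPM on day 12 against 0.304 CPM on day 0 (log2 fold change 3.10 ± 0.34, adjusted p = 1.52e-06). Reads of the pair cannot be told apart without the strand. In C2C12, Kcnj2 was high throughout, with 55.7, 60.1, 68.5 and 61.2 CPM on day 0 and 65.7, 57.4, 68.0 and 71.6 CPM on day 6. The last day was not called against day 0 (adjusted p = 0.272).

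KCNJ15 (Kir4.2) fell in both lines. It had 11.3, 9.77, 8.45 and 9.36 CPM on day 12 and 19.8, 17.9, 20.6 and 21.7 CPM on day 0 in LHCN-M2 (log2 fold change -1.04 ± 0.14, adjusted p = 1.42e-05). The lowest values came on day 1, at 6.86, 7.97, 5.63 and 5.15 CPM. In C2C12, Kcnj15 had 0.558, 0.757, 0.409 and 0.485 CPM on day 6 and 1.72, 2.5, 2.43 and 2.07 CPM on day 0 (log2 fold change -1.98 ± 0.35, adjusted p = 4.31e-05). Kcnj16 (Kir5.1), with which Kir4 channels assemble, dropped on day 1 in C2C12 to 0.781 CPM, against 2.92 CPM on day 0 (log2 fold change -1.91 ± 0.35, adjusted p = 0.000108). KCNJ6 (GIRK2), a G-protein-gated channel of neurons, averaged 100.5 ± 5.31 CPM on day 12 and 71.5 ± 14.7 CPM on day 0 (SD, n = 4 each; log2 fold change 0.49 ± 0.13, adjusted p = 0.00448). KCNJ14 was lower on day 1 (log2 fold change -0.92 ± 0.34, adjusted p = 0.0359) and not called on day 12. KCNJ14 overlaps GRWD1 on the same strand, and GRWD1 averaged 30.1 CPM on day 1 and 64.0 CPM on day 0, against 0.744 CPM and 1.41 CPM for KCNJ14. The part of GRWD1 in the KCNJ14 values was not tested.

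The 2-pore channels carry background potassium current. KCNK2 (TREK-1), which opens on stretch, peaked on day 1 in LHCN-M2, with 23.6, 19.7, 20.8 and 20.6 CPM on day 0, 79.7, 81.8, 69.8 and 73.3 CPM on day 1 and 37.5, 43.8, 37.9 and 38.2 CPM on day 12. The days did not overlap (log2 fold change 1.85 ± 0.09, adjusted p = 2.21e-10 for day 1 against day 0). Kcnk2 rose at each step in C2C12, to means of 13.6 CPM on day 1 and 16.6 CPM on day 6, against 9.98 CPM on day 0 (log2 fold change 0.74 ± 0.10, adjusted p = 1.77e-06 for day 6). In RefSeq GRCm38.p6 its span overlaps that of Pdcd5-ps, whose means were 16.04, 12.04 and 19.35 CPM on days 0, 1 and 6. The part of Pdcd5-ps in the Kcnk2 values was not tested. KCNK6 (TWIK-2) was lower on day 12, at 28.3, 21.5, 22.1 and 22.9 CPM, than on day 0, at 35.3, 52.5, 33.1 and 44.6 CPM (log2 fold change -0.80 ± 0.15, adjusted p = 0.000277). In C2C12, Kcnk5 (TASK-2) was higher on day 6 than on day 0 (log2 fold change 0.65 ± 0.15, adjusted p = 0.000877), and Kcnk4 and Kcnk12 were not called.

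Calcium- and sodium-activated channels moved in both lines. KCNN3 (SK3, GRCh38 chr1:154697455-154870280, minus strand), a small-conductance calcium-activated channel known from immature and denervated muscle, jumped by day 1 in LHCN-M2. It had 2.87, 1.27, 5.04 and 2.67 CPM on day 0, 49.7, 50.6, 57.1 and 51.9 CPM on day 1 and 35.0, 46.1, 45.2 and 49.8 CPM on day 12. Day 1 stood clear of day 0 (log2 fold change 4.14 ± 0.27, adjusted p = 6.47e-09), and day 12 was not called against day 1 (adjusted p = 0.416). In C2C12 the rise came later, with 0.682, 0.663, 1.41 and 1.11 CPM on day 0, 0.805, 1.2, 0.691 and 0.798 CPM on day 1 and 5.05, 5.03, 5.18 and 5.58 CPM on day 6. The day 6 libraries lay above all others (log2 fold change 2.43 ± 0.26, adjusted p = 5.31e-08 against day 0). Day 1 was not called there (adjusted p = 0.693).

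KCNN4, the intermediate-conductance relative, dipped on day 1 in LHCN-M2, at 1.44, 1.49, 1.65 and 1.73 CPM against 5.19, 6.76, 5.5 and 7.09 CPM on day 0 (log2 fold change -1.96 ± 0.21, adjusted p = 1.47e-06). Its day 12 level of 4.21 CPM was called lower than day 0 (adjusted p = 0.0282), a call lost under 7 of 16 alternatives. It was lost with the replicate number as a block (adjusted p = 0.0507), with only the 8 libraries of both days (adjusted p = 0.0605) and with no filter on low counts (adjusted p = 0.0504). It was also lost when day 0 replicate 2 or 4, or day 12 replicate 3 or 4, was left out (adjusted p = 0.0526 to 0.0908). Kcnn4 rose at each step in C2C12, to 47.4, 46.8, 47.6 and 45.8 CPM on day 6 against 25.8, 21.5, 23.2 and 21.7 CPM on day 0 (log2 fold change 1.02 ± 0.07, adjusted p = 7.65e-11). The sodium-activated channel gene Kcnt2 showed the largest fall of any C2C12 channel gene: 20.5, 21.5, 22.8 and 24.2 CPM on day 0, 7.58, 8.12, 8.82 and 8.96 CPM on day 1 and 0.922, 0.606, 1.09 and 0.655 CPM on day 6 (log2 fold change -4.75 ± 0.15, adjusted p = 1.89e-16). KCNT2 rose in LHCN-M2, to 2.65, 2.83, 4.61 and 2.65 CPM on day 12 against 1.27, 0.584, 1.34 and 1.38 CPM on day 0 (log2 fold change 1.47 ± 0.33, adjusted p = 0.00146). Kcnn1 was slightly lower on day 6 in C2C12 (log2 fold change -0.56 ± 0.18, adjusted p = 0.0118). The non-coding KCNQ1OT1, an imprinted antisense transcript at the KCNQ1 locus, was higher on day 12 in LHCN-M2 (log2 fold change 1.22 ± 0.24, adjusted p = 0.000465) and lower, as Kcnq1ot1, on day 6 in C2C12 (log2 fold change -0.86 ± 0.20, adjusted p = 0.000719). KCNH1-IT1, which lies within KCNH1 on the same strand, was higher on day 12 as well (log2 fold change 1.34 ± 0.43, adjusted p = 0.0163). The part of KCNH1 in the KCNH1-IT1 values was not tested.

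Among the CLCN genes, CLCN5 and CLCN4, a closely related pair of endosomal chloride-proton exchangers, rose in both lines, and the muscle channel gene stayed low. CLCN5 (GRCh38 chrX:49922615-50099235, plus strand) had 13.5, 8.54, 15.3 and 14.3 CPM on day 0, 57.9, 61.5, 70.1 and 66.1 CPM on day 1 and 61.2, 87.5, 80.0 and 90.0 CPM on day 12 in LHCN-M2. Day 0 lay below both later days (log2 fold change 2.63 ± 0.17, adjusted p = 3.41e-09 for day 12). Clcn5 had 57.1, 65.4, 61.2 and 57.4 CPM on day 0, 112, 109, 115 and 115 CPM on day 1 and 229, 175, 226 and 216 CPM on day 6 in C2C12 (log2 fold change 1.81 ± 0.07, adjusted p = 8.94e-15). The C2C12 days did not overlap, and Clcn5 stood at 18.5 ± 2.17 RPKM on day 6 (SD, n = 4), the highest level per length of the kept mouse genes on that day. CLCN4 averaged 31.9 ± 6.27 CPM on day 12 and 10.5 ± 3.19 CPM on day 0 in LHCN-M2 (log2 fold change 1.60 ± 0.20, adjusted p = 7.59e-06). Clcn4 averaged 94.3 ± 1.39 CPM on day 6 and 58.4 ± 2.46 CPM on day 0 in C2C12 (log2 fold change 0.69 ± 0.05, adjusted p = 2.41e-10).

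CLCN1 had at most 2 counts in any LHCN-M2 library and was not kept there. In C2C12, Clcn1 had 0.707, 0.874, 0.42 and 0.531 CPM on day 0, 1.32, 1.44, 1.52 and 1.54 CPM on day 1 and 0.97, 0.303, 0.6 and 0.752 CPM on day 6. Day 1 lay above both other days (log2 fold change 1.20 ± 0.37, adjusted p = 0.0111 against day 0), and day 6 was not called against day 0 (adjusted p = 0.896). In RefSeq GRCm38.p6 the span of Clcn1 overlaps that of Fam131b, whose means were 28.5, 53.7 and 15.1 CPM on days 0, 1 and 6. Its part in the Clcn1 values was not tested. The Clcn1 promoter window printed above held 3 E-boxes and the MEF2 match.

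The other CLCN genes moved less by the last day. CLCN6, a late endosomal exchanger, peaked on day 1 in LHCN-M2, with 95.4, 99.5, 101 and 101 CPM on day 1 against 38.8, 30.4, 37.9 and 42.0 CPM on day 0 (log2 fold change 1.41 ± 0.12, adjusted p = 9.12e-08). Without the strand, its reads cannot be told apart from those of genes that overlap it. Clcn6 also peaked on day 1 in C2C12, at 60.8 CPM against 48.4 CPM on day 0 (log2 fold change 0.33 ± 0.07, adjusted p = 0.00063). CLCN7, the lysosomal exchanger, was higher on the last day in both lines, with log2 fold change 0.35 ± 0.08, adjusted p = 0.00179 for CLCN7 in LHCN-M2 and log2 fold change 0.63 ± 0.09, adjusted p = 1.45e-06 for Clcn7 in C2C12. CLCN3 was not called on the last day in LHCN-M2 (log2 fold change 0.29, adjusted p = 0.0581), but 7 of 16 alternatives called it higher. These were RLE scaling, no filter on low counts, a filter of 10 counts in at least 4 libraries, DESeq2, and leaving out day 0 replicate 3, day 0 replicate 4 or both libraries that stood apart (adjusted p = 0.00862 to 0.0468). Clcn3 was not called on the last day in C2C12 (adjusted p = 0.0805), except without day 0 replicate 2 (adjusted p = 0.044). Clcn3 was lower on day 1 (log2 fold change -0.51 ± 0.06, adjusted p = 4.92e-07). The plasma membrane channel gene Clcn2 was lower on day 6 in C2C12 (log2 fold change -0.51 ± 0.16, adjusted p = 0.00699), and CLCN2 was not called on day 12 in LHCN-M2 (adjusted p = 0.0545).

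**Figure D4:**
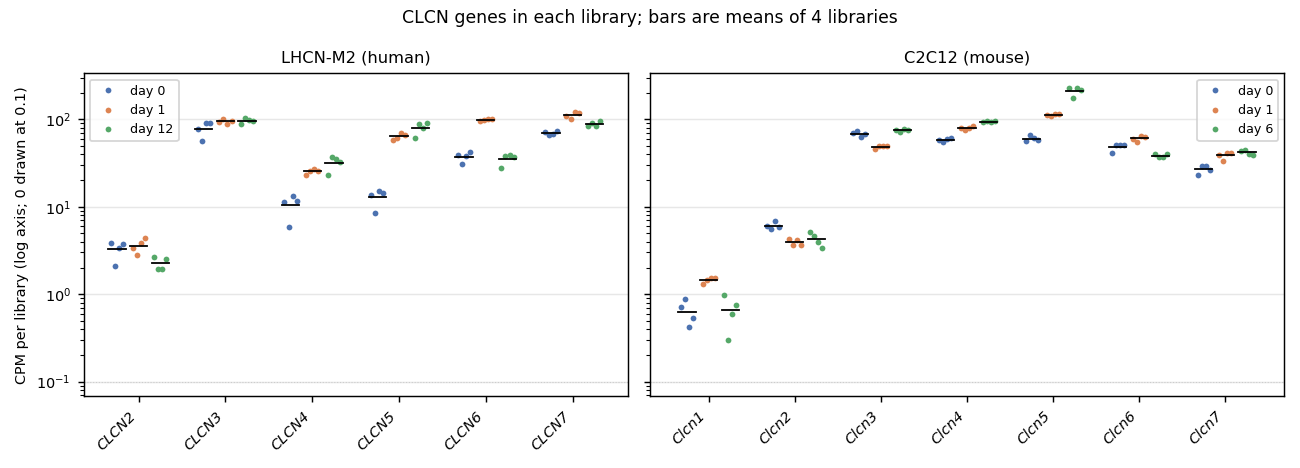
CPM of the kept CLCN genes in each library (log axis, starting at 0.1), by day, with black bars for the means of 4 libraries; LHCN-M2 is on the left and C2C12 on the right. CLCN4 and CLCN5 are lowest on day 0 in both lines, CLCN6 peaks on day 1 in both, and Clcn1 stays under 1.6 CPM in C2C12.

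The time course was not one-directional for many of these genes. The share of all genes with each pattern is not given here, so the counts below do not set channel genes apart. In LHCN-M2, 10 channel genes were called higher at both steps, among them SCN4A, KCNE4, KCNJ11 and KCNJ12, and none was called lower at both. Another 9 were higher on day 1 and then lower on day 12 than on day 1, among them KCND2, KCNK2, CLCN6 and SCN2A. Another 5 were lower on day 1 and then higher, among them KCNG1, KCNJ15, KCNN4 and KCNQ5. In C2C12, 7 were higher at both steps, among them Scn10a, Clcn4, Clcn5 and Kcnn4, and Kcnt2 was lower at both. Kcnj15 was also called lower at both, but its step from day 1 to day 6 (adjusted p = 0.0392) was lost under 9 of 15 alternatives. Among these were the replicate block (adjusted p = 0.0585), only the 8 libraries of both days (adjusted p = 0.0689) and no filter on low counts (adjusted p = 0.0641). The others left out any one of day 1 replicates 2, 3 and 4 or day 6 replicates 1, 3 and 4 (adjusted p = 0.0537 to 0.0932). A further 5 peaked on day 1, namely Clcn1, Clcn6, Kcnc2, Kcnf1 and Scn7a, and 3 had their low on day 1, namely Clcn3, Kcnj16 and Scn4a. Some of these calls lay near the threshold. KCNE5 and KCNC1, among the 10 of LHCN-M2, lost their day 1 step with only the 8 libraries of both days (adjusted p = 0.104 and 0.0506). The KCNQ5 call from day 1 to day 12 was lost without day 12 replicate 3 (log2 fold change 0.53 against 0.65, adjusted p = 0.0601). That of KCNH2 was lost without day 12 replicate 4 (log2 fold change 1.75 against 1.88, adjusted p = 0.0528). In C2C12 the Kcnc2 step to day 1 was lost without day 0 replicate 2 (adjusted p = 0.0506) and with no filter on low counts (adjusted p = 0.0509). The Scn4a step to day 1 was lost without day 0 replicate 1 (adjusted p = 0.138).

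As a description over the 12 libraries of each line, which share line and day, the genes whose log2(CPM + 0.1) was most like that of SCN4A in LHCN-M2 included KCNE4 (Pearson r = 0.983), KCNJ11 (0.981) and KCNJ12 (0.965). For Scn4a in C2C12 they included Kcnj12 (0.958), Kcnn3 (0.938) and Kcnn4 (0.881). KCNJ12 was among them in both lines.

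The lines were then compared by testing, over 10953 shared symbols and all 24 libraries, whether the LHCN-M2 change differed from the C2C12 change. Since the last days differ, the last-day values set 12 days of LHCN-M2 beside 6 days of C2C12. Of the 24 channel genes kept in both lines, 14 changed more upward and 4 more downward in LHCN-M2 by the last day (36% and 34.6% of all symbols, 70.5% in either direction), and 17 and 2 by day 1 (29.1% and 30.3%, 59.3% in either direction). Both pairs of counts had the same values without the pair of LHCN-M2 libraries that stood apart. By the last day, 10 genes were called higher and 2 lower in both lines: KCND1 and KCNJ15 were the 2 that fell in both. The share of all symbols called in both lines is not given here, so these counts do not set channel genes apart. For KCND1 the difference between the lines of 0.14 was not called (SE 0.27, adjusted p = 0.669).

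KCNH2 and KCNT2 differed most among genes with counts on both first days. The LHCN-M2 minus C2C12 difference in log2 fold change was 7.23 ± 0.50, adjusted p = 4.26e-12 for KCNH2 and 6.36 ± 0.38, adjusted p = 1.71e-13 for KCNT2, both higher in LHCN-M2 and lower in C2C12. Without LHCN-M2 day 0 replicate 1 the KCNH2 difference was 9.24 (adjusted p = 7.32e-13). SCN2A fell in LHCN-M2 and rose in C2C12, with a difference of -2.82 ± 0.45, adjusted p = 4.73e-06, and the KCNN4 difference was -1.43 ± 0.19, adjusted p = 2.67e-07. Kcnn4 rose in C2C12, while the KCNN4 fall in LHCN-M2 was lost under 7 of 16 alternatives, as given above. KCNQ1OT1 went the other way, at 2.22 ± 0.34, adjusted p = 2.46e-06.

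For SCN4A the change was also called larger in LHCN-M2 (adjusted p = 0.000117). Its fitted difference of 8.63 rests on a human day 0 at 0 counts, depends on the prior count of the fit and is no bound; it was 7.23 (adjusted p = 0.0106) without C2C12 day 0 replicate 1. On day 1, SCN4A and KCNT2 were called higher in LHCN-M2 and lower in C2C12, and KCNN4 was called lower in LHCN-M2 and higher in C2C12. Their differences were 14.58 for SCN4A, 2.54 for KCNT2 and -2.26 for KCNN4 on the log2 scale, the largest adjusted p being 7.02e-06. The SCN4A value again rests on groups at 0 counts. Without C2C12 day 0 replicate 1 it was 13.19 (adjusted p = 0.000957), and the C2C12 day 1 fall it is set against was then not called (adjusted p = 0.138).

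**Figure D5:**
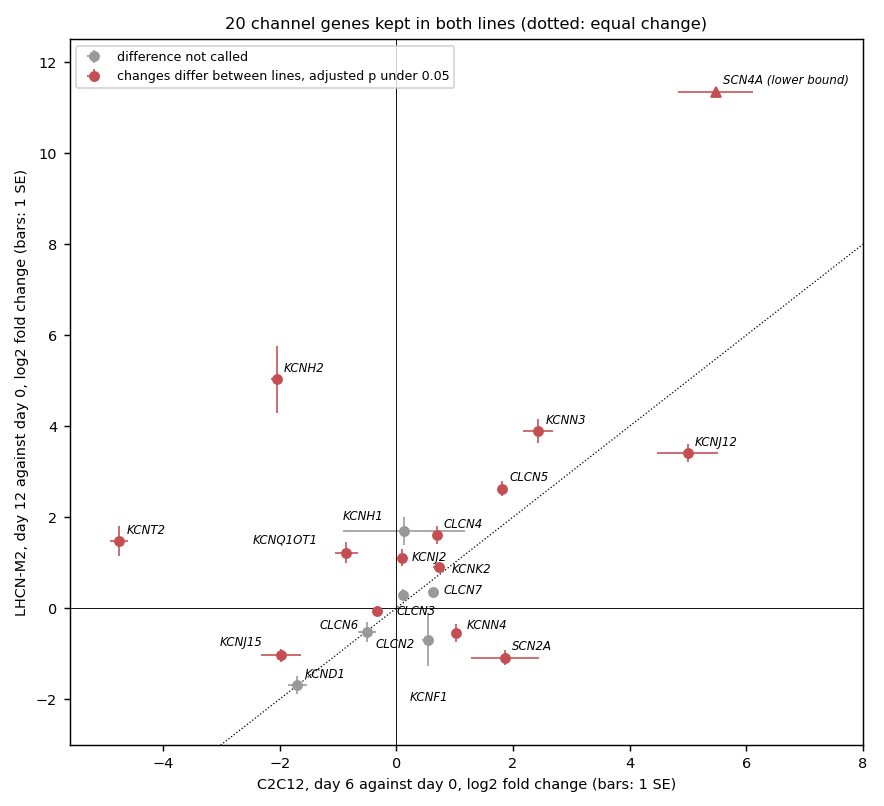
Log2 fold change of the last day against day 0 in LHCN-M2 (vertical) and C2C12 (horizontal) for 20 channel genes kept in both lines, with bars of 1 SE; red points differ between lines at an adjusted p under 0.05, grey points do not, the dotted line marks equal change and the triangle is a lower bound. KCNH2 and KCNT2 lie in the upper left, SCN2A lies below the line and KCND1 lies on it.

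Genes that work with these channels but fall outside the symbol rule were read from 3 lists. Of 16 channel anchors and sodium channel partners, 11 of 15 tested were higher and 2 lower on day 12 than on day 0 in LHCN-M2, and 5 of 14 were higher and 6 lower on day 6 in C2C12. The list medians were 1.22 and -0.27, against -0.01 and -0.03 over all genes tested. Of all genes tested, 54.6% in LHCN-M2 and 65.6% in C2C12 were called in either direction. CAV3, the muscle caveolin, averaged 78.6 CPM on day 12 and 14.5 CPM on day 0 in LHCN-M2 (log2 fold change 2.44 ± 0.15, adjusted p = 3.23e-09). In C2C12, Cav3 averaged 12.2 CPM on day 6 and 0.0301 CPM on day 0 (log2 fold change 8.62 ± 0.49, adjusted p = 2.36e-12). ANK2 and ANK3, ankyrins that anchor channels at the membrane, rose in LHCN-M2 (log2 fold changes 4.21 and 2.80, adjusted p = 9.34e-11 and 2.42e-08), and Ank2 and Ank3 fell in C2C12 (-1.68 and -0.63, adjusted p = 1.49e-11 and 5.15e-05).

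Of 15 sodium-potassium pump genes, 4 of 7 tested were higher and 2 lower on day 12 in LHCN-M2, and 5 of 10 were higher and 2 lower on day 6 in C2C12 (median log2 fold changes 0.28 and 0.56). The same medians over all genes tested were -0.01 and -0.03, and 54.6% and 65.6% of all genes were called in either direction. Of 23 accessory and related channel subunits, 7 of 14 tested were higher and 2 lower on day 12 in LHCN-M2, and 3 of 12 were higher and 4 lower on day 6 in C2C12 (median log2 fold changes 0.60 and -0.38). Lists of so few genes are not set apart from all genes by these counts. ABCC9, the sulfonylurea receptor that pairs with the KCNJ11 pore in muscle, averaged 6.01 CPM on day 12 and 0.562 CPM on day 0 in LHCN-M2 (log2 fold change 3.40 ± 0.36, adjusted p = 1.33e-06). OSTM1, the beta subunit of CLCN7, rose in both lines (log2 fold change 0.55 ± 0.07, adjusted p = 7.01e-06 in LHCN-M2 and log2 fold change 1.36 ± 0.06, adjusted p = 6.95e-14 in C2C12). Kcnmb1, a smooth muscle subunit of the large-conductance calcium-activated channel, fell in C2C12 to 0.335 CPM on day 6, against 7.89 CPM on day 0 (log2 fold change -4.52 ± 0.27, adjusted p = 4.79e-12). Beside it, the 7 smooth muscle markers summed to 1400 to 1599 CPM on day 6 and 1683 to 1828 CPM on day 0, and their part in that value was not tested.

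The symbols that were not kept had little or no signal. Of 64 such symbols in LHCN-M2, 22 had 0 counts in all libraries and none passed 36 counts in any library. Of 67 in C2C12, 31 had 0 counts throughout and none passed 19 counts. A group at 0 counts limits a level to 0.0192 CPM for SCN4A on day 0 in LHCN-M2 and to 0.0178 CPM for Scn4a on day 1 in C2C12, taking 3 counts over the 4 libraries, and this covers counting error only.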

How the data were processed

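RNA was sequenced from 12 LHCN-M2 and 12 C2C12 libraries. The authors deposited 1 table of read counts per gene for each line, with gene lengths and names. Reads were trimmed with fastp, aligned with HISAT2 2.2.1 to mm10 or GRCh38 and counted with featureCounts 2.0.6, and StringTie 2.2.3 is also named, per the submitters' processing notes. Neither the annotation release nor the strand setting is given in the sources used here, so overlapping and antisense genes may share reads. The members and gene lists were chosen with earlier results of these data known. Genes that the text names were those known in muscle, those with the largest called changes by the last day or day 1, the largest line differences, the highest levels, changes of direction between steps and the closest likeness to SCN4A. Other names serve to account for the remaining members, and some members are not reported here by name.

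The counts as deposited were tested over the whole table of each line with edgeR 4.0.16 in R 4.3.3 (limma 3.58.1), with the quasi-likelihood test, TMM scaling, the filterByExpr filter and 1 coefficient per day over 12 libraries. Errors beside log2 fold changes, given as SE, are approximate standard errors. Each is the absolute log2 fold change divided by the square root of the F statistic of the quasi-likelihood test. The p-values were adjusted by Benjamini-Hochberg over all genes tested (threshold 0.05). CPM used TMM-scaled totals, and RPKM the deposited gene lengths. The difference between lines was an interaction in 1 fit over 24 libraries and 10953 symbols shared by upper-case name, which is not an orthology table. On simulated counts for LHCN-M2 day 12 against day 0 (16736 genes), 61.9% of 97 genes changed by 1 on the log2 scale and 83.1% of 89 changed by 2 were called with the right sign. For C2C12 day 6 against day 0 (16234 genes) these were 75.8% of 91 and 89.5% of 95. No other simulated gene was changed, where 54.6% and 65.6% of all genes were called in the data. Fewer changed genes make the Benjamini-Hochberg adjustment stricter, so these rates do not give the sensitivity of the reported tests. No 2 libraries of a group agreed within sampling noise. Alternatives were RLE scaling, DESeq2 1.42.0, other filters, a 2-fold minimum, only the 8 libraries compared, a replicate block and leaving out each library. Leaving out both LHCN-M2 libraries that stood apart was added after seeing the data. Promoter sequences are from RefSeq (GRCm38.p6).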

Additional observations from a re-analysis of the deposited data

Results flagged for a closer look

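Of 165 gene and day groups of 4 libraries examined, 12 held a library far from the other 3 by Dixon's criterion, where chance alone would mark about 1 in 20. In LHCN-M2, CLCN6 was at 27.7 CPM in day 12 replicate 1 against 37.5 to 38.6 CPM in the other libraries. KCNE4 was at 67.2 CPM in that library against 62.4 to 63 CPM, and at 10.5 CPM in day 0 replicate 2 against 14.1 to 14.7 CPM. KCNG1 was at 2.11 CPM in day 0 replicate 1 against 1.34 to 1.4 CPM. KCNK2 was at 43.8 CPM in day 12 replicate 2 against 37.5 to 38.2 CPM, and KCNQ5 at 8.46 CPM in day 1 replicate 4 against 6.88 to 7.15 CPM. In C2C12, day 1 replicate 1 held Kcnh1 at 0.358 CPM against 0 to 0.046 CPM, Scn2a at 0.0447 CPM against 0.299 to 0.336 CPM and Clcn3 at 45.6 CPM against 48.9 to 49.3 CPM. On day 0 of C2C12, Kcnh2 was at 32.5 CPM in replicate 3 against 28.6 to 29 CPM, Kcnj16 at 4.22 CPM in replicate 4 against 2.37 to 2.68 CPM, and Clcn6 at 41.7 CPM in replicate 1 against 50.3 to 51.2 CPM.

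The change differed between the lines, by edgeR's interaction test, for genes called in opposite directions in the 2 lines and for those with the largest called last-day differences. By the last day the LHCN-M2 minus C2C12 difference in log2 fold change was 8.63 for SCN4A, 7.23 for KCNH2, 6.36 for KCNT2 and 2.22 for KCNQ1OT1. It was -2.82 for SCN2A and -1.43 for KCNN4. By day 1 it was 14.58 for SCN4A, 2.54 for KCNT2 and -2.26 for KCNN4. The SCN4A values rest on groups at 0 counts and depend on the prior count of the fit.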

How the results depend on the processing

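Counts of called channel genes stayed within 1.5 times their value under every alternative run except the 2-fold minimum. With it, 5 genes were lower on day 12 against day 0 and 7 on day 12 against day 1 in LHCN-M2 (8 and 11 without it). In C2C12, 6 were higher and 5 lower on day 1 against day 0 (13 and 9), 11 higher and 6 lower on day 6 against day 0 (17 and 11), and 10 higher on day 6 against day 1 (17). Leaving out each library in turn gave 27 to 30 higher and 7 to 10 lower on day 12 against day 0, 27 to 29 and 8 to 9 on day 1 against day 0, and 19 to 21 and 9 to 11 on day 12 against day 1 in LHCN-M2. In C2C12 it gave 17 to 18 and 11 to 12 on day 6 against day 0, 13 and 7 to 9 on day 1 against day 0, and 14 to 17 and 9 to 10 on day 6 against day 1. Between the lines it gave 12 to 15 and 4 to 5 by the last day and 15 to 18 and 2 to 3 by day 1. DESeq2 called 30 and 9 on day 12 against day 0 in LHCN-M2 and 17 and 12 on day 6 against day 0 in C2C12.

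Replicate numbers did not pair the libraries. Each gene's mean log CPM of the day was first subtracted from its libraries. The deviations of same-numbered libraries then correlated at -0.1 to 0.091 in LHCN-M2 and -0.053 to 0.039 in C2C12. By these deviations, 3 of 12 LHCN-M2 and 2 of 12 C2C12 libraries correlated best with their own number. With the replicate number as a block, 29 and 8 genes were called on day 12 against day 0, 27 and 8 on day 1 against day 0, and 20 and 10 on day 12 against day 1 in LHCN-M2. The block gave 17 and 12, 13 and 9, and 17 and 9 for day 6 against day 0, day 1 against day 0 and day 6 against day 1 in C2C12, and 13 and 4 by the last day and 16 and 2 by day 1 between the lines. Of the values of single named genes under alternatives, 3180 kept their side of the threshold, 50 lost and 35 gained a call. No change that was called in the main fit or in the alternative reversed direction. Some uncalled changes did change sign, such as CLCN6 on day 12 against day 0 in LHCN-M2 (log2 fold change -0.15 to 0.03). The cause of the lost and gained calls was not tested. No rescaling moved the median of all genes by more than 0.032 on the log2 scale. Genes with few counts on day 0, such as KCNH2 and Scn4a, had fold changes against day 0 that moved in size when 1 library was left out. The cause of these moves was not tested.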
